A study of Mus musculus with 11 samples.

Results

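The genes described here are 40 genes of collagen and other connective tissue matrix, chosen by symbol from a fixed list of names and all found among the 24974 genes of the deposited expression table. They are 19 collagen genes (7 of fibril-forming collagens, 5 of basement membrane and anchoring collagens, 4 of fibril-associated and short chain collagens and 3 of type VI collagen), 6 matrix glycoproteins, 4 elastic fiber genes, 5 small leucine-rich proteoglycans, 2 crosslinking enzymes and 4 receptors or markers of fibroblasts and mural cells. Expression was measured by RNA sequencing in 5 Dlx3 KO tumors, 3 Dlx3 KO skins and 3 WT skins of mice. KO stands for a conditional knockout of Dlx3, which encodes a transcription factor active in differentiating keratinocytes and in hair follicles, and Dlx3 KO skin is unaffected whole skin. All animals, WT included, had 3 topical doses of DMBA on the back, each 100 µg in 200 µl and 1 week apart, and tissue was taken at week 31. DMBA is a mutagen used to induce skin tumors in mice. Strain, age, sex and the promoter that drives the deletion are not given in the labels, and no label ties a tumor or a skin to an animal. Several samples may therefore come from 1 mouse, and the p-values reflect the spread between samples and not between known animals.

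Collagens are secreted chains that wind into helices. The fibril-forming types I, III, V and XI give the dermis its strength, type IV forms the sheet under the epidermis and around vessels, and type VII anchors that sheet to the dermis. Glycoproteins such as fibronectin and tenascin C link fibrils to cells, small proteoglycans such as decorin coat fibrils and set their width, and lysyl oxidases crosslink them. In skin most of these genes are transcribed by dermal fibroblasts, while Col7a1 is also made by keratinocytes and type IV collagen by vessels and keratinocytes. Whole skin and whole tumors hold all of these cells, and in such bulk samples fewer cells of a type and less RNA per cell cannot be told apart.

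Levels are in RPKM as the authors deposited them, that is, reads of a gene divided by its length and by the reads of the library, and libraries had 29265111 to 75707445 alignments. A sample sheet puts WT skins 1 to 3, Dlx3 KO skins 2 and 3 and tumor 5 in a first sequencing run and the other 5 libraries in a second. Dlx3 itself was at 1.34 to 7.61 RPKM in tumors, 4.08 to 8.88 RPKM in Dlx3 KO skins and 49.9, 7.35 and 89.9 RPKM in WT skins 1, 2 and 3, so that the library labelled WT skin 2 had the level of Dlx3 KO skins. Xist, the RNA of the silenced X chromosome of females, was below 1 RPKM in WT skins 1 and 3 and tumors 3 and 4 (0.0941 to 0.616) and at 10.1 to 21.97 RPKM in the other 7 libraries. Rn45s, the ribosomal RNA precursor, was at 11833 RPKM in tumor 5 and 10021 RPKM in WT skin 1, against 612 to 3242 RPKM elsewhere. Differences were fitted with limma on log2(RPKM + 0.5) over 14233 genes, and genes with an adjusted p under 0.05 were called. All fold changes are differences on that log2 scale, which understates changes of low genes. All 40 genes entered the fit, and the lowest of their group means was 0.776 RPKM, that of Fap in tumors.

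The 4 genes called in any comparison were Col8a1, Ogn, Fap and Col5a3. Their upstream sequence is shown where RefSeq lists a start site, together with that of the abundant fibrillar collagen gene Col3a1 for comparison. Each is the 150 bases before the annotated start on GRCm38.p6, 5′ to 3′ on the gene's strand, and Fap is named only. The windows are chr16:57754738-57754887 (minus strand) for Col8a1, chr13:49607865-49608014 (plus strand) for Ogn, chr9:20815068-20815217 (minus strand) for Col5a3 and chr1:45311388-45311537 (plus strand) for Col3a1. Capitals mark a CCAAT or a TATAAA, found on either strand.
Col8a1: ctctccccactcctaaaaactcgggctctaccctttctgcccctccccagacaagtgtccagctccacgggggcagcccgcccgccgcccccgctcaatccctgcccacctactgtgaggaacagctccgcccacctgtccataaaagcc
Ogn: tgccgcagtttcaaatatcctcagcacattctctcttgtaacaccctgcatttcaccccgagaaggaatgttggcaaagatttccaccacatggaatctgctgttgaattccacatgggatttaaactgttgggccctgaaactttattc
Col5a3: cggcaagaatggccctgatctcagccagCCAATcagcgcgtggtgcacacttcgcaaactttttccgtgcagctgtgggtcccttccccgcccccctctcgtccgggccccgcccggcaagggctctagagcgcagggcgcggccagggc
Col3a1: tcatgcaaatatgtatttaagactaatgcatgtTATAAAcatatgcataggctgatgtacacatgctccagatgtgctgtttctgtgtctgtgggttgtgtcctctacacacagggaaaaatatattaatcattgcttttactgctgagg
Windows were searched on both strands for CCAAT, for TATAAA and for TGANTCA (the AP-1 site), of which no matches overlapped in these 4. The CCAAT of Col5a3 lies 122 to 118 bases before the start and the TATAAA of Col3a1 117 to 112 bases before it. No match to these letters lies in the windows of Col8a1 and Ogn. Of 32851 RefSeq promoters, 24.5% hold CCAAT, 7.57% TATAAA and 4.24% TGANTCA in that window. Of the 27 listed matrix genes with a RefSeq promoter, 7, 4 and 1 hold them in any of their promoters. That count is by gene and the shares are by promoter, so they are not alike.

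The first comparison set tumors against unaffected skin of the same genotype. The short chain collagen gene Col8a1 rose in tumors, and the small proteoglycan gene Ogn and the fibroblast protease gene Fap fell. Among all genes tested 7.55% were called (0.998% higher and 6.56% lower), and among the matrix genes 3 of 40, or 7.5% (1 higher, 2 lower), so their share lay near that of all genes. The median log2 fold change was -0.43 over the 40 genes, of which 30 lay below 0 (75.0%), and -0.23 over all genes tested (70.3% below 0). Without tumor 5 it was -0.02 over the 40 genes and -0.17 over all genes, so that the matrix genes no longer lay below the rest. With median-ratio or quantile scaling the median of all genes moved to 0.02 or 0.09 and that of the matrix genes to -0.15 or -0.19. The same 3 genes were called under both scalings, while the calls among all genes changed from 142 higher and 933 lower to 343 and 783 or 487 and 634. Leaving out tumor 1 gave 2 higher and 8 lower (25% of the matrix genes, against 20.1% of all genes). Leaving out tumor 2, 3, 4 or 5 gave 0 and 1 (3.88% to 5.21% of all genes), leaving out Dlx3 KO skin 1 gave 0 and 2 (3.82%) and leaving out Dlx3 KO skin 2 or 3 gave 0 and 0 (3.35% or 2.43%). Library weights gave 4 and 12, or 40.0%, close to the 41.9% of all genes called in that fit. Within the first run, which holds 1 tumor, the median was -2.03 with 18 lower and 0 higher, against a median of -0.57 over all genes and 11.1% of them called. Within the second run, which holds 1 Dlx3 KO skin, it was 0.50 with 1 higher and 0 lower, against -0.08 over all genes and 1.28% called.

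Tumors were also set against WT skin, the skin labelled wild type, in which 1 of 3 libraries had Dlx3 at the level of Dlx3 KO skin. Col8a1 rose in tumors, while Ogn, Fap and the fibrillar collagen gene Col5a3 fell. Of all genes tested 15.5% were called (3.56% higher and 12.0% lower), and of the matrix genes 4 of 40 (1 higher, 3 lower). The median log2 fold change was -0.72 over the 40 genes, with 31 below 0 (77.5%), and -0.14 over all genes (61.6% below 0). Median-ratio and quantile scaling moved the median of all genes to 0.08 and 0.14 and their calls from 506 higher and 1702 lower to 1322 and 1511 or 1461 and 1373. The matrix gene median was -0.47 and -0.58 under these scalings, with 3 higher and 3 lower or 2 higher and 4 lower. Leaving out tumor 1 gave 3 higher and 9 lower (30.0% of the matrix genes, against 23.2% of all genes), and leaving out tumor 5 gave 4 and 2 (15.0%, against 15.9%). Leaving out WT skin 2 gave 1 and 2 (7.5%, against 12.8%), with Col7a1 higher in place of Col8a1, and leaving out WT skin 3 gave 0 and 0, against 8.96% of all genes. With sequencing run as a term 1 was higher and 0 lower (median -1.31), against 4.95% of all genes and a median of -0.27. Within the first run 1 was higher and 20 lower (median -2.25), against 10.9% of all genes and a median of -0.46.

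Outside tumors, Dlx3 KO skin was set against WT skin. There 0 of the 40 matrix genes and 0.0% of all genes tested were called by limma. At an unadjusted p under 0.05 there were 2 matrix genes (5.0%) and 8.63% of all genes. With library weights 2 genes were called, none of them listed here. The median log2 fold change was -0.13 over the 40 genes, 23 of them below 0 (57.5%), and 0.06 over all genes (43.3% below 0). It was 0.06 without Dlx3 KO skin 1 and -0.55 without WT skin 1. Without the library labelled WT skin 2, 64 of all genes were higher and 170 lower, none of them a matrix gene listed here. WT skins 1 and 3, which remained, were low in Xist (0.466 and 0.149 RPKM). Dlx3 KO skins 1 to 3 were high in it (10.1, 13.9 and 14.6 RPKM). Genotype and the sex marked by Xist therefore cannot be told apart in that comparison.

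**Figure D1:**
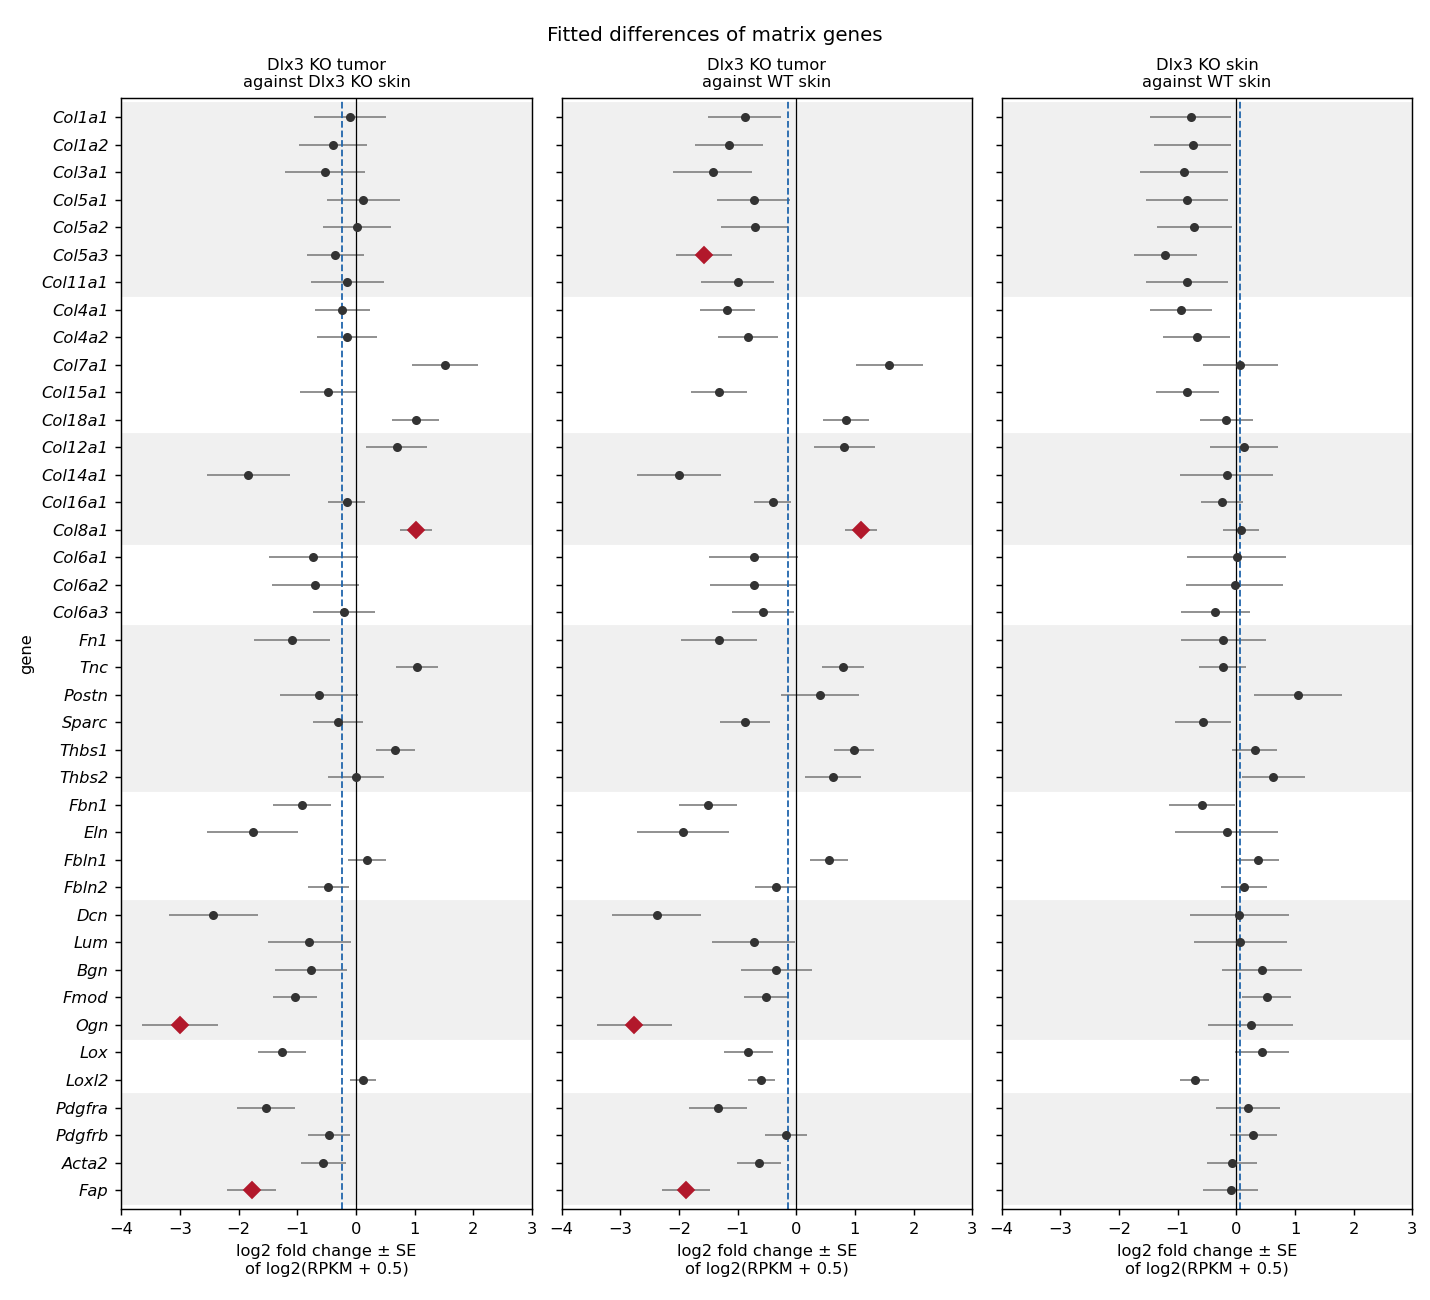
Fitted log2 fold changes of the 40 genes in 3 comparisons, with the gene on the vertical axis and log2 fold change of RPKM + 0.5 on the horizontal. Points are estimates, bars 1 SE, red diamonds genes called at an adjusted p under 0.05, and the dashed line the median of all genes tested. The red diamonds are Col8a1, Ogn and Fap in tumors against Dlx3 KO skin, the same genes with Col5a3 in tumors against WT skin, and there is none in Dlx3 KO skin against WT skin.

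Col8a1 encodes a chain of type VIII collagen, a short chain collagen of vessel walls and of remodelled matrix. It was at 1.26, 2.12, 3.69, 3.17 and 2.90 RPKM in tumors 1 to 5, 1.22, 0.804 and 0.929 RPKM in Dlx3 KO skins 1 to 3 and 0.996, 0.839 and 0.845 RPKM in WT skins 1 to 3. Every tumor lay above every skin, tumor 1 by the least. Its mean was 2.63 ± 0.953 RPKM in tumors, 0.983 ± 0.211 RPKM in Dlx3 KO skins and 0.893 ± 0.0888 RPKM in WT skins (SD, n = 5, 3 and 3). The log2 fold change was 1.02 ± 0.27 (SE, adjusted p = 0.0433) against Dlx3 KO skin and 1.11 ± 0.27 (adjusted p = 0.0188) against WT skin. Against Dlx3 KO skin the call was kept in 1 of 8 fits that each left out 1 library, the one without tumor 1, with adjusted p up to 0.170. Against WT skin it was kept in 6 of 8 and lost without WT skin 2 or 3 (up to 0.0632). The gene spans 57624258 to 57754737 on chromosome 16, minus strand, in GENCODE M21 on mm10.

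Ogn encodes osteoglycin, a small leucine-rich proteoglycan that binds collagen fibrils. Tumors 1 to 5 had 5.51, 0.405, 0.394, 0.952 and 0.900 RPKM, Dlx3 KO skins 1 to 3 8.36, 10.4 and 20.5 RPKM and WT skins 1 to 3 12.9, 4.05 and 19.5 RPKM. All tumors were below all Dlx3 KO skins, tumor 1 stood far above the other 4, and it exceeded the library labelled WT skin 2. The mean of Ogn was 1.63 ± 2.18 RPKM in tumors, 13.1 ± 6.48 RPKM in Dlx3 KO skins and 12.2 ± 7.75 RPKM in WT skins (SD, n = 5, 3 and 3). The log2 fold change was -2.999 ± 0.64 against Dlx3 KO skin (SE, adjusted p = 0.0187) and -2.76 ± 0.64 against WT skin (adjusted p = 0.0151). The first call was lost without Dlx3 KO skin 2 or 3 (adjusted p up to 0.108) and the second without WT skin 1 or 3 (up to 0.0775). Ogn lies on the plus strand of chromosome 13, from 49608046 to 49624501.

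Fap encodes fibroblast activation protein, a surface protease of activated fibroblasts in wounds and tumors. Its level was 2.15, 0.259, 0.464, 0.561 and 0.449 RPKM in tumors 1 to 5, 1.94, 3.42 and 5.77 RPKM in Dlx3 KO skins and 3.75, 2.70 and 4.92 RPKM in WT skins. Tumors 2 to 5 lay below every skin, and tumor 1 exceeded Dlx3 KO skin 1 only. Fap averaged 0.776 ± 0.774 RPKM in tumors, 3.71 ± 1.93 RPKM in Dlx3 KO skins and 3.79 ± 1.11 RPKM in WT skins (SD, n = 5, 3 and 3). The log2 fold change was -1.78 ± 0.41 (SE, adjusted p = 0.0268) against Dlx3 KO skin and -1.88 ± 0.41 (adjusted p = 0.0111) against WT skin. Against Dlx3 KO skin the call was kept without tumor 1 or Dlx3 KO skin 1 and lost without any of the other 6 libraries (adjusted p up to 0.144). Against WT skin it was lost without WT skin 3 (0.0580). Fap lies on chromosome 2, from 62500943 to 62574075 on the minus strand.

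Col5a3, a chain of the minor fibrillar collagen V, was at 6.44, 4.77, 7.32, 9.87 and 2.09 RPKM in tumors 1 to 5, 4.57, 6.20 and 12.6 RPKM in Dlx3 KO skins and 9.21, 27.1 and 20.3 RPKM in WT skins. The tumors overlapped with both skins, reaching above WT skin 1 in tumor 4. The mean of Col5a3 was 6.10 ± 2.90 RPKM in tumors, 7.78 ± 4.24 RPKM in Dlx3 KO skins and 18.9 ± 9.04 RPKM in WT skins (SD, n = 5, 3 and 3). In tumors it fell relative to WT skin, with -1.57 ± 0.48 (SE) on the log2 scale (adjusted p = 0.0478). Dlx3 KO skin had -1.22 ± 0.54 against WT skin (adjusted p = 0.555), and tumors had -0.35 ± 0.48 against Dlx3 KO skin (adjusted p = 0.680), neither of which passed. The call was lost when tumor 2, 3 or 5 or WT skin 2 or 3 was left out (adjusted p up to 0.173). Col5a3 spans 20770050 to 20815067 on chromosome 9, minus strand.

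In the authors' deposited table, q-values under 0.05 were given to 0 matrix genes in tumors against Dlx3 KO skin, to 3 in tumors against WT skin (Col8a1, Ogn and Fap) and to 0 in Dlx3 KO skin against WT skin. Among all genes of that table, 561, 2122 and 7 had such q-values in these comparisons, in the same order. The share of its genes that these make up was not computed. The authors' deposited table gives those 3 genes q = 0.0785, 0.0773 and 0.0837 in tumors against Dlx3 KO skin.

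**Figure D2:**
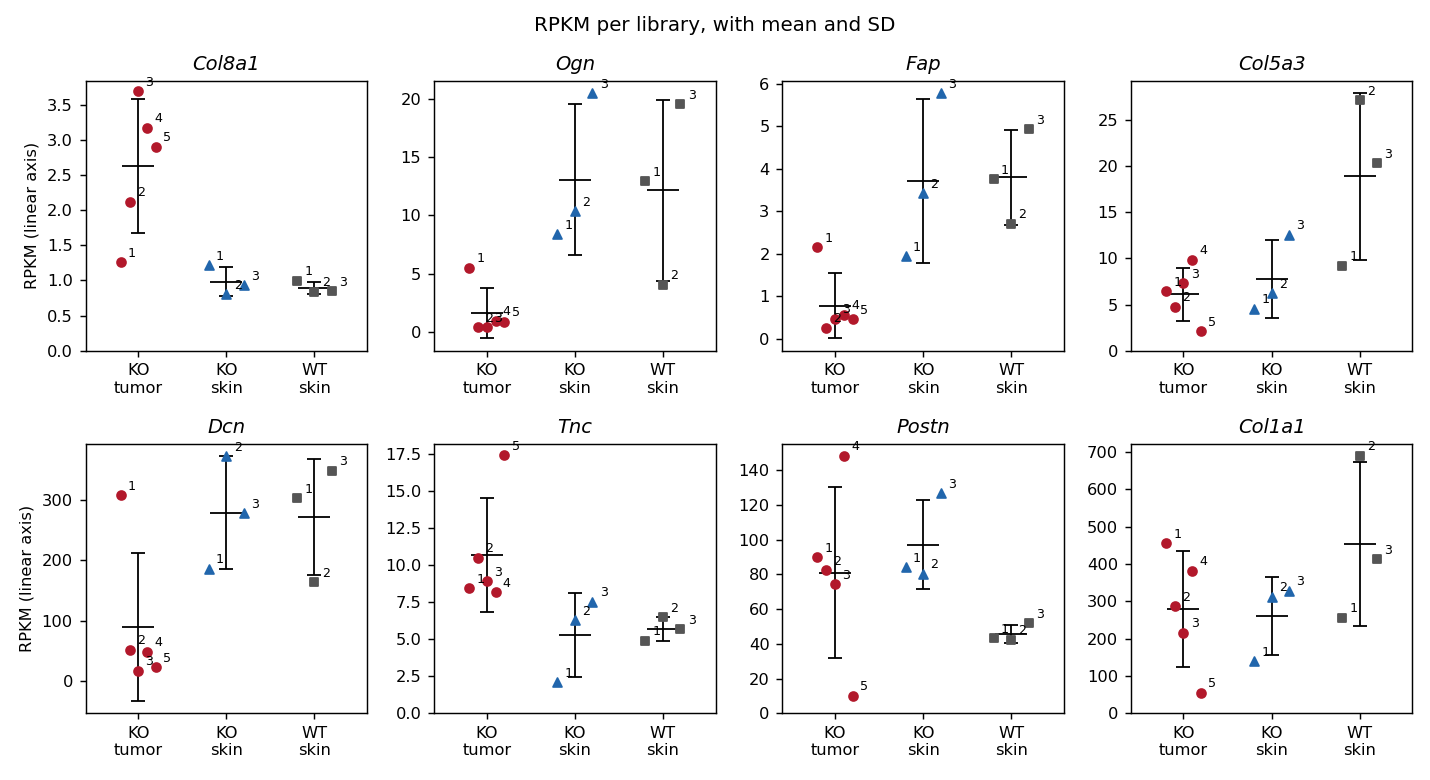
RPKM in every library, on linear axes, of 8 genes in tumors, Dlx3 KO skins and WT skins. Points carry the replicate number, and the horizontal line with its bar is the mean with its SD (n = 5, 3 and 3). Tumors lie above all skins for Col8a1 and Tnc, tumor 1 stands above the other tumors for Ogn, Fap and Dcn, and tumor 5 stands below them for Postn and Col1a1.

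The genes of collagens I and III, the bulk of dermal fibrils, were among the most abundant of the 40. Col1a1 was at 455, 287, 216, 382 and 55.8 RPKM in tumors 1 to 5, 140.5, 312 and 329 RPKM in Dlx3 KO skins and 256, 690.5 and 413 RPKM in WT skins. Col1a2, its partner chain, was at 414, 243, 183, 263 and 46.6 RPKM in tumors, 172, 289 and 299 RPKM in Dlx3 KO skins and 263, 610.0 and 438 RPKM in WT skins. Col3a1 was at 358, 147, 132, 203 and 29.8 RPKM in tumors, 116, 217 and 285 RPKM in Dlx3 KO skins and 195, 603 and 394 RPKM in WT skins. For all 3 genes the groups overlapped, tumor 5 was lowest and the library labelled WT skin 2 was highest of the 11 libraries. Log2 fold changes against WT skin were -0.88, -1.14 and -1.43 in tumors (adjusted p = 0.380, 0.218 and 0.186) and -0.78, -0.75 and -0.90 in Dlx3 KO skin (adjusted p = 0.810, 0.806 and 0.799), none of which passed. Tumors against Dlx3 KO skin had -0.10, -0.40 and -0.53. Without tumor 5, Col1a1, Col1a2 and Col3a1 were at -0.37, -0.64 and -0.89 in tumors against WT skin and at 0.41, 0.10 and 0.01 against Dlx3 KO skin. Without the library labelled WT skin 2, the 3 genes were at -0.52, -0.86 and -1.05 in tumors and -0.42, -0.46 and -0.52 in Dlx3 KO skin against WT skin. Of the other fibrillar chains, Col5a1 lay at 2.57 to 22.3 RPKM in tumors, 6.003 to 16.5 RPKM in Dlx3 KO skins and 9.67 to 36.2 RPKM in WT skins. Col5a2 lay at 3.21 to 23.2, 9.64 to 18.8 and 13.3 to 41.1 RPKM in tumors, Dlx3 KO skins and WT skins, and Col11a1, a cartilage collagen chain also made by activated fibroblasts, at 0.177 to 2.94, 0.350 to 2.32 and 1.12 to 4.55 RPKM. All 7 fibrillar genes had a fold change below 0 in tumors and in Dlx3 KO skin against WT skin (medians -0.997 and -0.85), 2 comparisons that share the WT skins, and 5 of 7 in tumors against Dlx3 KO skin (median -0.15).

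Basement membrane and anchoring collagens split between higher and lower values in tumors. Col7a1, which forms the anchoring fibrils under the epidermis, was at 20.2, 49.1, 43.9, 74.9 and 31.04 RPKM in tumors 1 to 5, 20.8, 11.2 and 10.7 RPKM in Dlx3 KO skins and 5.25, 38.1 and 10.5 RPKM in WT skins. Tumors 2 to 5 were above all Dlx3 KO skins, tumor 1 lay beside Dlx3 KO skin 1, and 1 WT skin, the library labelled WT skin 2, lay among the tumors. Its log2 fold changes of 1.52 ± 0.57 against Dlx3 KO skin (SE, adjusted p = 0.123) and 1.59 ± 0.57 against WT skin (adjusted p = 0.0819) did not pass. Without the library labelled WT skin 2 the second was 2.35 (adjusted p = 0.00917). Col18a1, a vessel and epithelial basement membrane collagen that is the source of endostatin, was at 25.5, 26.1, 48.7, 61.9 and 18.8 RPKM in tumors, 16.6, 15.9 and 15.4 RPKM in Dlx3 KO skins and 10.1, 24.4 and 23.5 RPKM in WT skins. Every tumor was above every Dlx3 KO skin, but the difference did not pass (log2 fold change 1.02 ± 0.40, SE, adjusted p = 0.137). Col4a1 was at 32.0, 13.3, 27.3, 23.1 and 8.38 RPKM in tumors, 16.0, 21.5 and 30.9 RPKM in Dlx3 KO skins and 21.2, 62.7 and 59.0 RPKM in WT skins, with WT skins 2 and 3 above all other libraries. Neither tumors (-1.18 ± 0.47, SE, adjusted p = 0.119) nor Dlx3 KO skin (-0.95 ± 0.53, adjusted p = 0.658) passed against WT skin. Col4a2, whose gene lies head to head with Col4a1 on chromosome 8, the annotated starts overlapping by 22 bases, lay at 6.27 to 25.5 RPKM in tumors, 14.1 to 22.2 RPKM in Dlx3 KO skins and 11.7 to 44.8 RPKM in WT skins. Col15a1, a collagen of the zone beneath basement membranes, was at 15.9, 4.13, 7.19, 4.74 and 3.84 RPKM in tumors, 4.66, 10.7 and 13.5 RPKM in Dlx3 KO skins and 9.49, 19.3 and 22.9 RPKM in WT skins. Tumor 1 was the highest tumor, and Dlx3 KO skin overlapped with WT skin (-0.84 ± 0.54, SE, adjusted p = 0.711).

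Among fibril-associated collagens, Col14a1 and Col12a1 had opposite signs in tumors. Col14a1 was at 9.89, 0.663, 0.919, 0.924 and 0.470 RPKM in tumors 1 to 5, 3.11, 7.38 and 10.1 RPKM in Dlx3 KO skins and 3.93, 12.2 and 7.05 RPKM in WT skins. Tumors 2 to 5 lay below every skin and tumor 1 lay within them (log2 fold change -1.83 ± 0.71 against Dlx3 KO skin, SE, adjusted p = 0.136). Without tumor 1 this gene was called as lower in both tumor comparisons. Col12a1 lay at 1.61 to 12.4 RPKM in tumors, 2.47 to 4.79 RPKM in Dlx3 KO skins and 2.69 to 4.13 RPKM in WT skins, with tumors 2 to 4 above all skins (adjusted p = 0.419 and 0.322). Col16a1 lay at 18.7 to 38.0, 22.6 to 29.4 and 19.7 to 53.2 RPKM in tumors, Dlx3 KO skins and WT skins, which overlapped. Type VI collagen forms beaded filaments around cells. Its chain Col6a1 was at 84.3, 36.4, 36.1, 57.2 and 7.32 RPKM in tumors, 35.5, 50.8 and 103 RPKM in Dlx3 KO skins and 21.5, 144 and 59.3 RPKM in WT skins, which overlapped widely (log2 fold change -0.72, -0.72 and 0.00 in tumors against Dlx3 KO skin, tumors against WT skin and Dlx3 KO skin against WT skin). Col6a2 and Col6a3 overlapped between groups as well, at 4.56 to 52.3 and 2.27 to 17.1 RPKM in tumors, 20.3 to 71.1 and 6.67 to 15.8 RPKM in Dlx3 KO skins and 16.0 to 80.9 and 9.27 to 16.7 RPKM in WT skins.

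**Figure D3:**
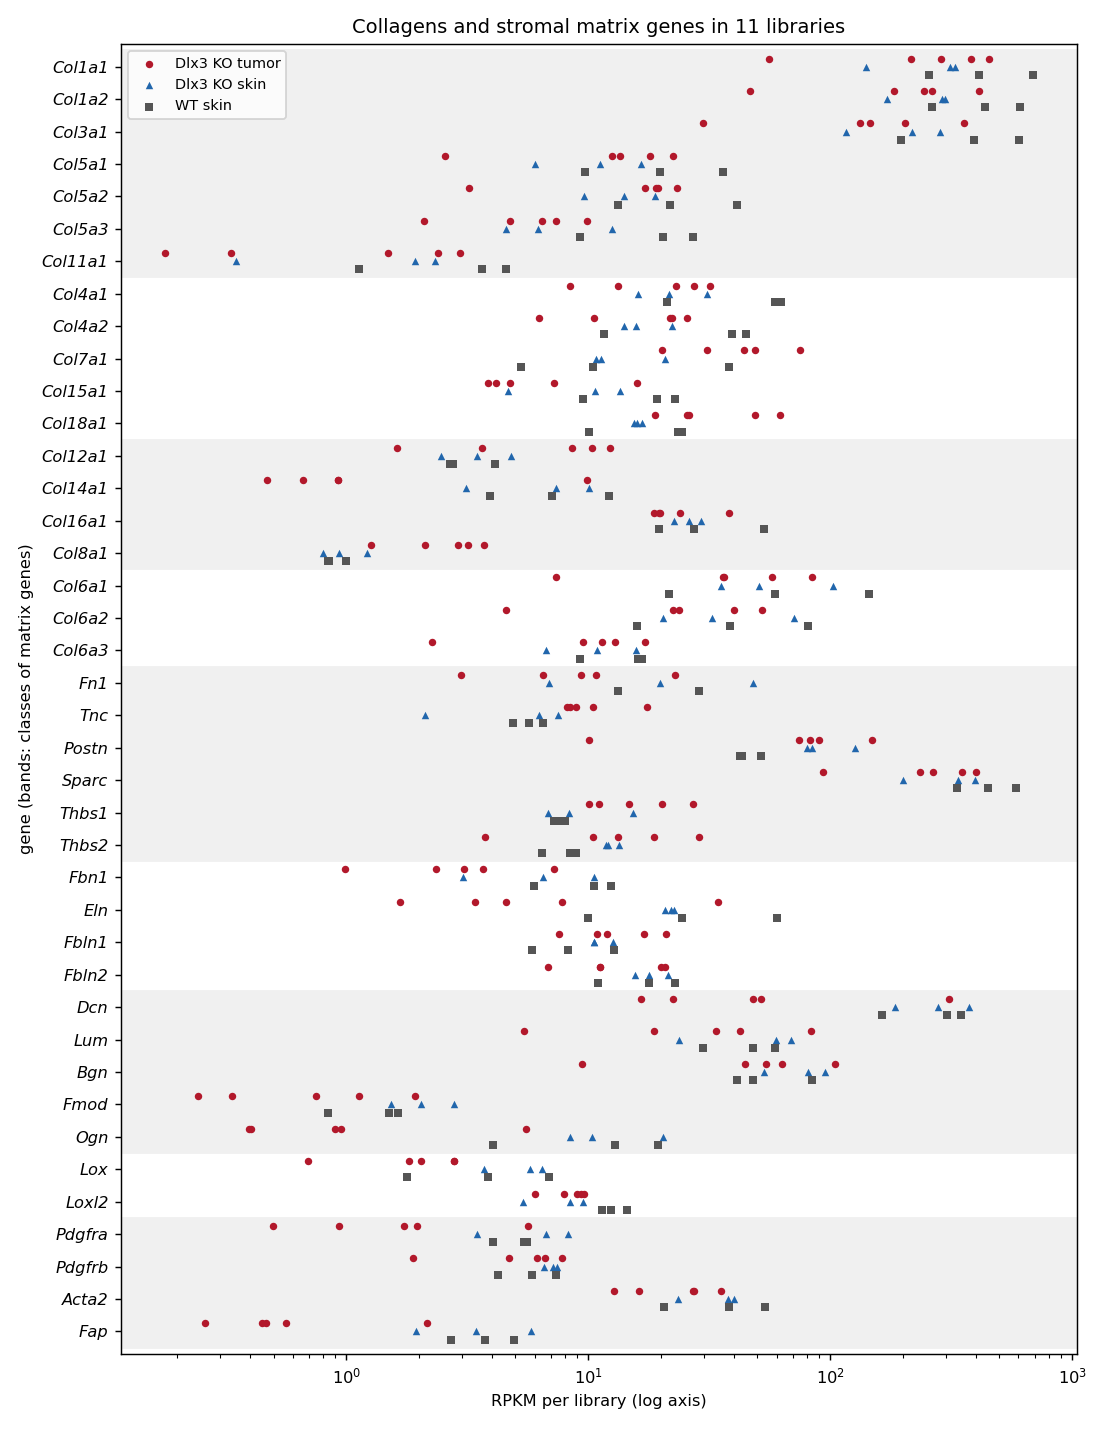
RPKM per library on a log axis for the 40 genes in 11 libraries, with the classes of genes in shaded bands. Red circles are tumors, blue triangles Dlx3 KO skins and gray squares WT skins. Collagens I and III and Sparc lie furthest to the right, and the single red circle far left of the others in many rows is tumor 5.

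The 6 glycoprotein genes had fold changes of both signs. Tnc encodes tenascin C, a glycoprotein of wound and tumor matrix. Tumors 1 to 5 had 8.42, 10.5, 8.89, 8.17 and 17.4 RPKM, Dlx3 KO skins 2.11, 6.28 and 7.53 RPKM and WT skins 4.89, 6.50 and 5.67 RPKM. Every tumor was above every skin, but neither fold change passed (1.04 ± 0.36 against Dlx3 KO skin, SE, adjusted p = 0.0999; 0.80 ± 0.36 against WT skin, adjusted p = 0.159). With sequencing run as a term both passed (log2 fold changes 1.59 and 1.75, adjusted p = 0.00180 and 0.00309). That term rested largely on tumor 5, the only tumor of the first run, and Dlx3 KO skin 1, the only skin of the second. For Tnc these were the highest and the lowest of the 11 libraries. Fn1, which encodes fibronectin, was at 22.7, 6.52, 9.34, 10.7 and 2.98 RPKM in tumors, 6.91, 19.8 and 48.1 RPKM in Dlx3 KO skins and 13.3, 28.7 and 28.6 RPKM in WT skins. The groups overlapped (log2 fold change -1.09 ± 0.65 against Dlx3 KO skin, SE, adjusted p = 0.314; -1.32 ± 0.65 against WT skin, adjusted p = 0.201). Postn encodes periostin, a glycoprotein of remodelled connective tissue. It was at 89.9, 82.4, 74.5, 148 and 10.1 RPKM in tumors, 84.2, 80.5 and 127 RPKM in Dlx3 KO skins and 43.3, 42.5 and 52.0 RPKM in WT skins. All Dlx3 KO skins lay above all WT skins, as did tumors 1 to 4, and tumor 5 lay below all other libraries. Dlx3 KO skin against WT skin did not pass (log2 fold change 1.05 ± 0.74, SE, adjusted p = 0.746), and neither did tumors against WT skin (0.41 ± 0.66, adjusted p = 0.733). Without tumor 5 the difference between tumors and WT skin was 1.05 (adjusted p = 0.0213), and within the first run, where tumor 5 is the only tumor, it was -2.13 (adjusted p = 0.0116).

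Sparc, a collagen-binding glycoprotein, lay at 93.7 to 401 RPKM in tumors, 201 to 399 RPKM in Dlx3 KO skins and 336 to 584 RPKM in WT skins. The thrombospondin gene Thbs1 was at 11.02, 10.02, 14.8, 27.2 and 20.1 RPKM in tumors, 15.3, 6.83 and 8.32 RPKM in Dlx3 KO skins and 8.05, 7.67 and 7.19 RPKM in WT skins, all tumors above all WT skins without passing (0.98 ± 0.34, SE, adjusted p = 0.0725). Its relative Thbs2 was at 3.74 to 28.7 RPKM in tumors, 13.4, 12.0 and 11.9 RPKM in Dlx3 KO skins and 6.44, 8.39 and 8.89 RPKM in WT skins, all Dlx3 KO skins above all WT skins (0.63 ± 0.53, SE, adjusted p = 0.800). Of the 4 elastic fiber genes 0 were called. Eln, the elastin gene, was at 34.4, 3.39, 4.59, 7.82 and 1.66 RPKM in tumors, 21.9, 20.8 and 22.6 RPKM in Dlx3 KO skins and 9.93, 60.1 and 24.4 RPKM in WT skins, with tumors 2 to 5 below every skin and tumor 1 above the Dlx3 KO skins (adjusted p = 0.184 against Dlx3 KO skin and 0.122 against WT skin). Fbn1, the gene of the microfibril protein fibrillin, lay at 0.984 to 7.19 RPKM in tumors, 3.04 to 10.6 RPKM in Dlx3 KO skins and 5.94 to 12.4 RPKM in WT skins (adjusted p = 0.272 and 0.0646 in tumors against Dlx3 KO skin and WT skin). Fbln1 lay at 7.54 to 20.97, 10.5 to 12.6 and 5.85 to 12.8 RPKM and Fbln2 at 6.80 to 20.8, 15.6 to 21.3 and 10.9 to 22.8 RPKM in tumors, Dlx3 KO skins and WT skins, which overlapped for both fibulin genes.

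All 5 small leucine-rich proteoglycan genes had fold changes below 0 in tumors, with a median of -1.03 against Dlx3 KO skin and -0.72 against WT skin, and of these Ogn was called. Dcn encodes decorin, the most abundant of them in skin. It was at 309, 51.8, 16.5, 48.2 and 22.5 RPKM in tumors 1 to 5, 186, 373 and 278 RPKM in Dlx3 KO skins and 303, 164 and 349 RPKM in WT skins. Tumors 2 to 5 were below every skin, while tumor 1 lay within the skins. The log2 fold change was -2.43 ± 0.76 against Dlx3 KO skin (SE, adjusted p = 0.0770) and -2.38 ± 0.76 against WT skin (adjusted p = 0.0558), and did not pass. Without tumor 1 both passed, at -3.09 (adjusted p = 0.000834) and -3.04 (adjusted p = 0.000650). Lum and Bgn, the genes of lumican and biglycan, overlapped between groups, at 5.44 to 83.0 and 9.44 to 105 RPKM in tumors, 23.8 to 68.6 and 53.1 to 95.1 RPKM in Dlx3 KO skins and 29.8 to 59.1 and 41.3 to 83.8 RPKM in WT skins. Fmod, the gene of fibromodulin, was at 1.92, 0.337, 1.13, 0.752 and 0.243 RPKM in tumors, 1.52, 2.03 and 2.79 RPKM in Dlx3 KO skins and 0.838, 1.502 and 1.64 RPKM in WT skins (adjusted p = 0.113 in tumors against Dlx3 KO skin). In Dlx3 KO skin against WT skin all 5 had fold changes above 0 (median 0.24), none of them called.

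Of the crosslinking enzymes, Lox was at 2.78, 1.81, 2.04, 2.79 and 0.695 RPKM in tumors, 6.44, 3.71 and 5.76 RPKM in Dlx3 KO skins and 3.86, 1.77 and 6.87 RPKM in WT skins. All tumors were below all Dlx3 KO skins (-1.26 ± 0.41, SE, adjusted p = 0.0863), which did not pass. Loxl2 was at 7.92, 8.95, 9.29, 9.59 and 5.999 RPKM in tumors, 5.36, 8.37 and 9.48 RPKM in Dlx3 KO skins and 11.4, 14.5 and 12.4 RPKM in WT skins. All tumors and all Dlx3 KO skins were below all WT skins, yet neither tumors (-0.59 ± 0.22, SE, adjusted p = 0.0981) nor Dlx3 KO skin (-0.71 ± 0.25, adjusted p = 0.416) passed. Groups that do not overlap were seen for 5 of 40 genes in tumors against Dlx3 KO skin (Col18a1, Col8a1 and Tnc higher, Ogn and Lox lower), against 19.4% of all genes tested (4.65% higher and 14.8% lower). They were seen for 5 in tumors against WT skin (Col8a1, Tnc and Thbs1 higher, Loxl2 and Fap lower), against 16.1% of all genes (3.89% higher and 12.2% lower), and for 3 in Dlx3 KO skin against WT skin (Postn and Thbs2 higher, Loxl2 lower), against 16.4% (11.3% higher and 5.1% lower). Col18a1, Thbs1, Thbs2 and Lox were singled out after their values were seen.

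Pdgfra encodes a growth factor receptor of fibroblasts and Pdgfrb one of pericytes and fibroblasts. Pdgfra was at 5.66, 1.95, 0.929, 1.73 and 0.497 RPKM in tumors 1 to 5, 3.47, 6.67 and 8.21 RPKM in Dlx3 KO skins and 4.05, 5.56 and 5.43 RPKM in WT skins. Tumors 2 to 5 lay below all skins, and tumor 1 above all WT skins (-1.53 ± 0.49 against Dlx3 KO skin, SE, adjusted p = 0.0821; -1.33 ± 0.49 against WT skin, adjusted p = 0.0912). Without tumor 1 Pdgfra was called as lower in both. Pdgfrb was at 6.60, 4.72, 6.14, 7.79 and 1.88 RPKM in tumors, 6.54, 7.16 and 7.42 RPKM in Dlx3 KO skins and 4.25, 5.83 and 7.35 RPKM in WT skins, which overlapped (adjusted p = 0.437 and 0.790 in tumors against Dlx3 KO skin and WT skin). Acta2, smooth muscle actin of vessels and activated fibroblasts, was at 27.1, 16.2, 27.4, 35.4 and 12.8 RPKM in tumors, 23.5, 39.9 and 37.9 RPKM in Dlx3 KO skins and 38.2, 20.6 and 53.5 RPKM in WT skins, also overlapping (adjusted p = 0.383 and 0.296). Acta2 shares long stretches of sequence with other actin genes, so its values are uncertain where the counting split shared reads.

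The 5 tumors differed widely from each other. The 40 genes held 0.597, 0.316, 0.297, 0.407 and 0.136% of the summed RPKM of tumors 1 to 5, against 0.298, 0.459 and 0.555% in Dlx3 KO skins and 0.425, 0.802 and 0.707% in WT skins. Tumor 5 was the lowest of the tumors for 32 of the 40 genes and the lowest of all 11 libraries for 29. Its median log2 difference to the mean of the other tumors was -1.51 over the 40 genes and -0.34 over all genes tested, and -2.44 over the 7 fibrillar collagen genes. Tumor 1 was the highest of the tumors for 23 genes, with a median difference of 0.91 over the 40 genes, 0.28 over all genes and 2.05 over the small proteoglycans. Among the skins, Dlx3 KO skin 1 was the lowest of its group for 30 genes (median difference -0.75), and the library labelled WT skin 2 was above the mean of the other WT skins for all 7 fibrillar genes (median 1.08) and for 1 of 5 small proteoglycans (median -0.83). Tumor 5 is also the only tumor of the first run and high in Rn45s, and Dlx3 KO skin 1 is the only skin of the second run, so library and run cannot be told apart. Without tumors 1 and 5, a choice made after their values were seen, 3 of the 40 genes were higher and 7 lower in tumors against Dlx3 KO skin (25%, against 16.8% of all genes), and 6 higher and 8 lower against WT skin (35%, against 22.3%).

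**Figure D4:**
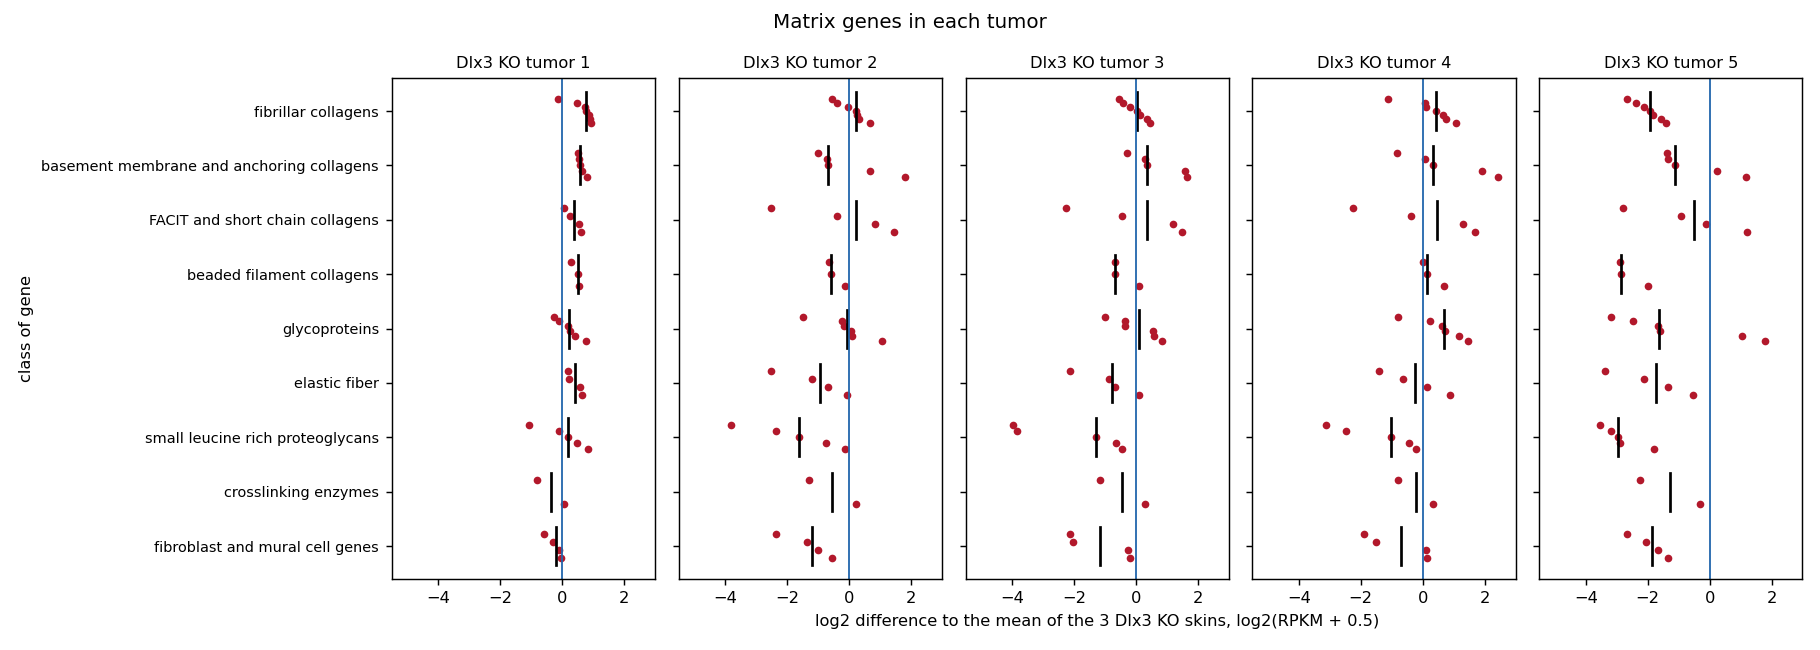
Log2 difference of each matrix gene in each tumor to the mean of the 3 Dlx3 KO skins, on log2(RPKM + 0.5), with 1 panel per tumor and the class of gene on the vertical axis. Points are genes, black lines class medians and the blue line no difference. Tumor 1 lies near or right of the blue line in most classes, and tumor 5 lies left of it in all 9 class medians.

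Ratios between genes of 1 library do not depend on its total, and are described without a test. Col3a1 per Col1a1 was 0.786, 0.510, 0.612, 0.532 and 0.533 in tumors 1 to 5, against 0.824, 0.696 and 0.867 in Dlx3 KO skins and 0.762, 0.873 and 0.953 in WT skins. Tumors 2 to 5 were thus below every skin in this ratio, tumor 5 included, while tumor 1 lay among the skins. Dcn per Col1a1 was 0.677, 0.180, 0.0764, 0.126 and 0.402 in tumors, 1.32, 1.20 and 0.845 in Dlx3 KO skins and 1.18, 0.237 and 0.843 in WT skins, the low value among skins being that of the library labelled WT skin 2. Tnc per Fn1 was 0.371, 1.61, 0.951, 0.761 and 5.85 in tumors, 0.306, 0.318 and 0.156 in Dlx3 KO skins and 0.367, 0.226 and 0.198 in WT skins. Every tumor was above every skin in that ratio, tumor 1 by a narrow margin. Col6a2 per Col6a1 stayed between 0.562 and 0.742 in all 11 libraries, and Col4a2 per Col4a1 between 0.747 and 0.939 in tumors, 0.721 and 0.879 in Dlx3 KO skins and 0.550 and 0.714 in WT skins.

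Other genes of matrix biology were counted in lists. Beside these and the later lists stand the shares of all genes tested that were called. They were 0.998% higher and 6.56% lower in tumors against Dlx3 KO skin, and 3.56% higher and 12.0% lower against WT skin. Among genes for folding and processing of collagen, 0 rose and 1 of 30 fell relative to Dlx3 KO skin, and 2 rose and 3 fell against WT skin. The one that fell in both was Tmem38b, an endoplasmic reticulum potassium channel needed for collagen secretion, at 4.18, 3.15, 4.15, 3.14 and 4.48 RPKM in tumors, 9.83, 7.60 and 11.8 RPKM in Dlx3 KO skins and 10.3, 10.2 and 15.1 RPKM in WT skins (log2 fold change -1.24, adjusted p = 0.00516, and -1.51, adjusted p = 0.000756). No tumor overlapped with a skin. P3h4, a cofactor of collagen lysine hydroxylation, rose against WT skin (1.30, adjusted p = 0.00123), as did the prolyl hydroxylase gene P3h2 (0.88, adjusted p = 0.0392), while the procollagen peptidase gene Adamts14 fell (-1.43, adjusted p = 0.0231). Of 11 other collagen genes 0 were called in tumors against Dlx3 KO skin, and against WT skin the transmembrane collagen gene Col13a1 rose (1.19, adjusted p = 0.0430) and Col4a5 (-0.996, adjusted p = 0.0261) and Col8a2 (-1.21, adjusted p = 0.0286) fell. Col8a2, which encodes the other type VIII chain, was at 1.07, 0.268, 0.289, 0.173 and 0.154 RPKM in tumors, 0.401, 0.881 and 0.947 RPKM in Dlx3 KO skins and 0.854, 2.001 and 1.68 RPKM in WT skins, with a fold change opposite in sign to that of Col8a1. Of 46 further glycoproteins and proteoglycans, 0 were called higher and 5 lower in tumors against Dlx3 KO skin, and 0 higher and 12 lower against WT skin. Those with the smallest p were Ccn5 (-1.75), vitronectin Vtn (-1.74), podocan Podn (-1.53) and tenascin X Tnxb (-2.89) against Dlx3 KO skin (adjusted p = 0.0104, 0.0181, 0.0332 and 0.0462). Tnxb, which in humans is mutated in a form of Ehlers-Danlos syndrome, was at 19.1, 0.521, 0.876, 1.81 and 1.23 RPKM in tumors 1 to 5, 16.4, 19.6 and 19.7 RPKM in Dlx3 KO skins and 11.5, 25.6 and 24.2 RPKM in WT skins, again with tumor 1 among the skins.

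Genes that break down collagen were called in both directions in tumors. Of 16 such genes, 2 were higher and 2 lower than in Dlx3 KO skin, and the same counts held against WT skin. The collagenase gene Mmp13 was at 2.15, 31.7, 10.3, 26.3 and 7.72 RPKM in tumors 1 to 5, 0.583, 0.465 and 0.346 RPKM in Dlx3 KO skins and 0.617, 0.458 and 0.264 RPKM in WT skins, all tumors above all skins and tumor 1 the lowest tumor (3.59 against Dlx3 KO skin, adjusted p = 0.00750, and 3.62 against WT skin, adjusted p = 0.00382). Mmp10, a stromelysin gene, was at 0.275, 11.7, 4.01, 5.86 and 2.51 RPKM in tumors, 0.0294, 0.0383 and 0.103 RPKM in Dlx3 KO skins and 0.0671, 0.0774 and 0 RPKM in WT skins (adjusted p = 0.0302 and 0.0161). The inhibitor genes Timp3 and Timp4 fell: Timp3 was at 29.8, 4.18, 7.84, 7.97 and 12.5 RPKM in tumors, 35.9, 45.9 and 43.0 RPKM in Dlx3 KO skins and 37.9, 45.5 and 49.4 RPKM in WT skins (-1.99, adjusted p = 0.0264, and -2.08, adjusted p = 0.0115). Timp4 was at 1.75, 0.182, 0.300, 0.297 and 0.310 RPKM in tumors, 3.03, 3.22 and 4.70 RPKM in Dlx3 KO skins and 7.74, 4.66 and 11.4 RPKM in WT skins (-2.099, adjusted p = 0.00882, and -3.06, adjusted p = 0.000384). Among 28 genes of TGF-beta signalling, which drives collagen transcription, 0 were called in tumors against Dlx3 KO skin. The smallest p there were those of the receptors Tgfbr2 (-1.13, adjusted p = 0.0773) and Tgfbr3 (-1.59, adjusted p = 0.0871), which did not pass. Against WT skin 3 rose and 4 fell. The 4 were the inhibitory genes Smad6 (-1.46) and Bambi (-2.16), the follistatin relative Fstl1 (-1.61) and the shared mediator Smad4 (-0.65), with adjusted p = 0.00659, 0.0339, 0.0193 and 0.0351. Of 19 matrix receptors, Cd36, a scavenger receptor also of adipocytes and vessels, fell in both (-3.15 and -3.12, adjusted p = 0.00526 and 0.00300), and the hyaluronan receptor Cd44 rose against WT skin (1.13, adjusted p = 0.00184).

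Markers of the cells that the samples may hold differed between groups as well. Of all genes tested, 6.56% were called lower in tumors against Dlx3 KO skin and 12.0% against WT skin. Of 33 further dermal fibroblast genes, 0 rose and 8 fell relative to Dlx3 KO skin (median -1.13), and 1 rose and 13 fell against WT skin (median -0.996). The limb and dermis factor Tbx15 was at 5.93, 1.61, 1.09, 1.68 and 1.17 RPKM in tumors, 10.6, 12.8 and 17.03 RPKM in Dlx3 KO skins and 15.8, 16.7 and 25.7 RPKM in WT skins (-2.52, adjusted p = 0.00348, and -3.02, adjusted p = 0.000577), and Sfrp4, C3 and Prrx1 fell against Dlx3 KO skin as well (-3.02, -3.70 and -1.22, adjusted p = 0.00458, 0.0326 and 0.0379). Summed over the list, fibroblast genes had 1996, 642, 608, 1169 and 771 RPKM in tumors 1 to 5, 1399 to 2308 RPKM in Dlx3 KO skins and 1529 to 2060 RPKM in WT skins, so tumor 1 lay with the skins here too. Of 27 genes of activated fibroblasts, 0 rose and 2 fell relative to Dlx3 KO skin (median -0.06), the tropomyosins Tpm1 (-2.51) and Tpm2 (-2.22), which skeletal muscle also makes (adjusted p = 0.000278 and 0.00124). Against WT skin 2 rose and 3 fell (median 0.16). Of the 27 genes, 13 lay above 0 and 14 below against Dlx3 KO skin, and 15 above and 12 below against WT skin. Of 15 smooth muscle and pericyte markers, 0 rose and 4 fell in either tumor comparison, among them Des (-5.35), also a muscle gene, and Lmod1 (-1.62) against Dlx3 KO skin (adjusted p = 6.60e-05 and 0.00129).

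In Dlx3 KO skin against WT skin 0 genes of these lists and of the cell type lists were called. As 0.0% of all genes tested were called there, that count sets no list apart. Values that did not pass there include P3h4 (0.80, adjusted p = 0.276), Cd44 (0.77, adjusted p = 0.267), Smad6 (-1.05, adjusted p = 0.353) and Timp4 (-0.96, adjusted p = 0.579). Fold changes in that comparison were below 0 for 17 of 17 hair shaft markers (median -3.73) and 16 of 20 skeletal muscle markers (-0.79). They were above 0 for 22 of 25 keratinocyte markers (0.56). Of 25 keratinocyte markers, 3 rose and 0 fell in tumors relative to Dlx3 KO skin (among them the basal keratin gene Krt14, 1.79, and the desmosome gene Dsg3, 1.79, adjusted p = 0.0298 and 0.0488), and 6 rose and 1 fell against WT skin. Over all 25 the median was -0.07 against Dlx3 KO skin, with 11 above 0 and 14 below. Against WT skin the median was 0.53, with 19 above 0 and 6 below. Summed keratinocyte markers were at 18217 to 51527 RPKM in tumors, 33648 to 34974 RPKM in Dlx3 KO skins and 8144, 54272 and 8235 RPKM in WT skins 1 to 3. All 20 skeletal muscle markers fell in tumors in both comparisons (medians -5.67 and -6.73), with summed levels of 42.8 to 810 RPKM in tumors, 7045 to 15061 RPKM in Dlx3 KO skins and 15444 to 23839 RPKM in WT skins. Adipocyte markers had 0 risen and 11 of 14 fallen in each (469 to 3065 RPKM in tumors, 1885 to 3897 RPKM in Dlx3 KO skins and 3280 to 4631 RPKM in WT skins). In tumors against Dlx3 KO skin 0 rose and 3 of 17 endothelial, 7 of 18 macrophage and dendritic cell, 6 of 10 Schwann cell, 4 of 9 mast cell and 3 of 17 hair shaft markers fell. Against WT skin 0 rose and 1, 8, 6, 2 and 17 of them fell. The shares of all genes called lower were 6.56% against Dlx3 KO skin and 12.0% against WT skin. No list had a marker at 0 in every library, and the part of these cells in the matrix gene values was not tested.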

How the data were processed

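RNA from whole Dlx3 KO tumors (5), Dlx3 KO skins (3) and WT skins (3) was sequenced in single 50-base reads after removal of ribosomal RNA, per the labels' protocols. The submitters' processing notes name bcl2fastq 2.20.0.422, TopHat2 2.1.1, Bowtie and Partek. Per the file headers, reads were mapped to mm10 and the authors computed RPKM per gene in Partek. How reads shared by near copies or overlapping genes were counted is not given in the labels or headers. The sample sheet gives each library's count of alignments, per the file headers. The authors' deposited table holds log2 group means, p-values, q-values, a ratio and a signed fold change (a score of their own) per gene and comparison. From it only counts of q-values and single q-values of named genes were used.

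The deposited RPKM were transformed here to log2(RPKM + 0.5). Genes averaging 0.5 RPKM or more were kept, 14233 of 24974, of which 1143 were at 0 in every library. All 3 groups entered 1 limma 3.58.1 fit (R 4.3.3) with trended and robust variances and 8 residual degrees of freedom. Tests were two-sided, and adjusted p-values are Benjamini-Hochberg over all genes tested. Replicate libraries correlated at 0.939 to 0.985 in tumors, 0.984 to 0.991 in Dlx3 KO skins and 0.954 to 0.978 in WT skins on the log2 scale. The authors' RPKM hold no per-gene counts, so no counting interval is given.

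Named were all 40 genes, with values per library for up to 8 called genes per direction, for the 5 with the smallest p where fewer than 5 were called, and for 13 genes picked by role. Up to 4 called genes per related list and comparison were named. One gene that this rule selects is not reported here. The 40 genes and the 17 related lists were chosen with earlier results of these data known. Alternatives were other pseudocounts, filters, scalings and variance settings, library weights, a replicate block, terms for run or Xist, parts of the libraries and leaving out each library. Those without the libraries high in Rn45s and without tumors 1 and 5 were added after seeing the data. Sequences are RefSeq's for GRCm38.p6 and gene spans those of GENCODE M21 on mm10. Python 3.11.15, numpy 2.4.6, pandas 2.3.3 and matplotlib 3.10.9 were used for tables and plots.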

Additional observations from a re-analysis of the deposited data

Results flagged for a closer look

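In 6 of the 40 matrix genes 1 tumor stood apart from the other 4, by a gap to the nearest of them that exceeded 0.71 of the whole range of the 5 tumors on log2(RPKM + 0.5) (Dixon's limit, which chance passes in about 1 of 20 groups). Tumor 5 was the low one for 3 of them. Col5a1 was at 2.57 RPKM in tumor 5 and 12.6 to 22.3 RPKM in the other tumors, a gap of 0.723 of the range. Col5a2 was at 3.21 RPKM there and 17.2 to 23.2 RPKM in the others (0.841). Postn was at 10.1 RPKM there and 74.5 to 148 RPKM in the others (0.740). Tumor 1 was the high one for the other 3. Col14a1 was at 9.89 RPKM in tumor 1 and 0.470 to 0.924 RPKM in the others (0.838). Ogn was at 5.51 RPKM there and 0.394 to 0.952 RPKM in the others (0.745). Fap was at 2.15 RPKM there and 0.259 to 0.561 RPKM in the others (0.732). The share of all genes that pass this limit was not counted, so 6 of 40 has no background beside it. Of all 14233 genes tested, tumor 5 lay below the mean of the other tumors for 10419. Tumor 1 lay above the mean of the others for 10257.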

How the results depend on the processing

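Dlx3 KO skin against WT skin had 0 matrix genes called under every alternative run, with a median log2 fold change of -0.59 to 0.06. Counts for tumors are given as higher and lower, against Dlx3 KO skin first (1 and 2 as reported) and WT skin second (1 and 3), with the share of all genes called in the same fits in parentheses (7.55% and 15.5% as reported). With no filter they were 0 and 1, then 1 and 2 (3.1% and 9.42%). With a filter at a mean of 2 RPKM they were 0 and 2, then 0 and 3 (7.29% and 15.2%). Median-ratio scaling gave 1 and 2, then 3 and 3 (7.94% and 20%), and quantile normalization 1 and 2, then 2 and 4 (7.88% and 19.9%). Library weights gave 4 and 12, then 2 and 2 (41.9% and 14.1%). A fit of the compared groups alone gave 0 and 1, then 1 and 2 (5.63% and 10.4%). Run as a term gave 1 and 2, then 1 and 0 (7.62% and 4.95%), and Xist as a term 0 and 2, then 1 and 2 (4.07% and 14.9%). The genes called also changed. With run as a term they were Tnc higher and Lox and Ogn lower against Dlx3 KO skin, and Tnc higher against WT skin. With Xist as a term they were Lox and Ogn lower against Dlx3 KO skin, and Col8a1 higher and Fap and Ogn lower against WT skin. High Xist libraries alone gave 0 and 0 against Dlx3 KO skin (1.91%). Their only WT skin is the library labelled WT skin 2, with Dlx3 at the level of Dlx3 KO skins. Against it the medians were -1.20 in tumors (-0.19 over all genes) and -0.59 in Dlx3 KO skin (0.07 over all genes). The first run alone gave 0 and 18, then 1 and 20, with medians of -2.03 and -2.25 (11.1% and 10.9%), and the second run alone 1 and 0 against Dlx3 KO skin, with a median of 0.50 (1.28%). Each run holds a lone sample of 1 group, assumed to vary like the others. Postn in tumors against WT skin turned from 0.41 to -2.13 in the first run alone. The cause was not tested in any of these. Without the libraries high in Rn45s the counts were 0 and 0, then 0 and 2 (4.79% and 12.8%), the 2 being Col4a1 and Col5a3. Without tumors 1 and 5 the counts were 3 and 7, then 6 and 8 (16.8% and 22.3%). Leaving out 1 library gave 0 to 2 higher and 0 to 8 lower (medians -0.65 to -0.02, -0.02 being that without tumor 5) against Dlx3 KO skin, and 0 to 4 higher and 0 to 9 lower (medians -1.08 to -0.39) against WT skin. Beyond leaving out libraries, the call against Dlx3 KO skin was kept in 7 of 16 other alternatives for Col8a1, 13 of 17 for Ogn and 9 of 17 for Fap, and that against WT skin in 10 of 15 for Col8a1, 11 of 16 for Ogn, 12 of 16 for Fap and 7 of 16 for Col5a3.

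A replicate block gave 0 and 0 in both (2.51% and 6.93%), with medians of -0.13 and -0.36, and 0 in Dlx3 KO skin against WT skin. Deviations from the group means correlated between libraries of the same replicate number at 0.00853, -0.00295 and -0.108 for tumors and Dlx3 KO skin. The correlations were -0.406, -0.0833 and 0.185 for tumors and WT skin, and -0.230, -0.132 and 0.168 for Dlx3 KO skin and WT skin. Samples of 1 mouse need not deviate together, so these values cannot tell whether the number marks a pairing. Of the fold changes of named genes recomputed, 961 kept their call, or stayed uncalled within 1 SE of the value given, 69 lost a call, 40 gained one, 43 uncalled ones moved by more than 1 SE and 1 reversed. RPKM without counts leave the depth behind low genes such as Fap in tumors unknown, and 3 skins per group, 1 with Dlx3 against its label, limit what can be called.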

Other observations

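Ogn lies on chromosome 13 in a cluster with 3 related matrix genes, Aspn, Omd and Ecm2, which were picked after the values of Ogn were seen. Aspn, which encodes asporin, was at 16.4, 3.85, 3.62, 6.41 and 1.55 RPKM in tumors 1 to 5, 5.51, 10.2 and 17.8 RPKM in Dlx3 KO skins and 10.02, 4.35 and 16.8 RPKM in WT skins. Omd, which encodes osteomodulin, was at 3.52, 2.78, 2.95, 0.922 and 3.31 RPKM in tumors, 1.86, 3.82 and 3.38 RPKM in Dlx3 KO skins and 4.56, 1.45 and 3.31 RPKM in WT skins. Ecm2 was at 4.81, 1.16, 0.919, 0.868 and 1.20 RPKM in tumors, 2.16, 4.30 and 4.93 RPKM in Dlx3 KO skins and 5.58, 3.15 and 5.82 RPKM in WT skins. For all 3 the tumors overlapped with Dlx3 KO skins and with WT skins, and tumor 1 was the highest tumor, as it was for Ogn.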
